A study of Mus musculus with 9 samples.

Results

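Chemokines are small secreted proteins that draw cells along a concentration gradient, and their receptors are G protein-coupled receptors on the cells that respond. The genes described here are the 57 chemokine ligand and receptor genes of a deposited mouse RNA sequencing table of 48708 genes, 35 ligands and 22 receptors. They were taken by gene symbol: Ccl, Cxcl, Ccr, Cxcr and Ackr genes with a number, together with Ccrl2, Cx3cl1, Cx3cr1, Xcl1 and Xcr1. Cxcl9, Cxcl10, Cxcl11 and Cxcr3, the interferon-induced T cell attractants and their receptor, were left out and are not analysed here.

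The RNA came from small intestine of C57BL/6 mice, all at 8 weeks of age by the labels and all with acute graft-versus-host disease (GVHD), a condition in which transplanted donor immune cells attack the recipient's tissues. Each group had 3 libraries. RIPK3-KO carried the RIPK3-/- genotype, with Ripk3 deleted in the whole animal. Vil carried a floxed Ripk3 allele with Villin-cre, and the Villin promoter drives the recombinase in intestinal epithelium. WT was wild type. Ripk3 encodes a kinase of necroptosis, a regulated form of cell death. The labels do not say whether a genotype also holds for the transplanted cells, from which reads of immune cell genes may come, nor how long after transplantation the tissue was taken. Separate animals behind the libraries of a group are not stated, and duplication of samples is mentioned, so p-values here cover variation among libraries that could be technical in origin.

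In the gut, epithelial cells make ligands that place lymphocytes in the mucosa, while activated macrophages, stromal cells and epithelium make ligands that call in neutrophils, monocytes and effector T cells during inflammation. Most ligands bind more than 1 receptor. Atypical receptors bind ligands without the usual G protein signal and remove or hold them. Fewer cells of a type and less RNA per cell cannot be told apart in RNA from whole tissue.

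Libraries held 25375499 to 41038990 counts, of which the chemokine genes took 0.0785 to 0.0823% in RIPK3-KO, 0.0738 to 0.0750% in Vil and 0.0770 to 0.0784% in WT. Counts are given below as CPM, counts relative to the scaled library size. Even counts were in excess, with 61.3 to 65.6% of counts between 10 and 100 being even, a pattern that counting both reads of a pair would give, so counting intervals printed here may be too narrow. Libraries of a group differed by more than counting error, with a mean chi-square per gene of 5.38 to 11.1 between RIPK3-KO libraries, 6.85 to 11.96 between Vil libraries and 3.57 to 3.76 between WT libraries. RIPK3-KO replicate 1 stood further from replicates 2 (10.5) and 3 (11.1) than these did from each other (5.38), and calls that change without it are named beside each gene. Ripk3 was at 3.40 to 3.88 CPM in RIPK3-KO, 5.54 to 7.36 CPM in Vil and 112 to 114 CPM in WT libraries. All 11 epithelial markers were detected, with a summed level of 16650 to 17512 CPM in RIPK3-KO, 16958 to 17775 CPM in Vil and 16572 to 16832 CPM in WT. Markers of other tissues also moved with the groups: 20 exocrine pancreas genes summed to 1087 to 1210 CPM in RIPK3-KO, 23965 to 25861 CPM in Vil and 3915 to 3998 CPM in WT, and 14 adipocyte genes to 6228 to 6338 CPM in RIPK3-KO, 311 to 318 CPM in Vil and 223 to 229 CPM in WT. The 9 erythroid genes summed to 622 to 694 CPM in RIPK3-KO, 400 to 470 CPM in Vil and 378 to 386 CPM in WT. For 8 smooth muscle genes the sums were 3321 to 3686 CPM in RIPK3-KO, 2888 to 3070 CPM in Vil and 1421 to 1480 CPM in WT. Xist, expressed from the inactive X chromosome, was at 272 to 283 CPM in RIPK3-KO, 7.07 to 7.90 CPM in Vil and 6.67 to 10.6 CPM in WT, so sex and genotype cannot be told apart where RIPK3-KO is compared. The part of these differences in the results below was not tested.

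Of the 57 genes, 48 had enough counts to be tested, 30 ligands and 18 receptors. A gene is said to have risen or fallen where its adjusted p was under 0.05 in edgeR's quasi-likelihood test, with Benjamini-Hochberg adjustment over all 16539 genes tested. In RIPK3-KO against WT 14 of the 48 rose and 18 fell, against 55.4% of all genes tested called in that comparison, 27.3% higher and 28.1% lower. In Vil against WT 8 rose and 21 fell, against 55.6% called over all genes, 27.2% higher and 28.4% lower. Both comparisons used the same WT libraries, and the comparison of RIPK3-KO with Vil uses libraries of both again. In RIPK3-KO against Vil 15 rose and 5 fell, against 31.7% called over all genes, 16.6% higher and 15.1% lower. Counts by role and of marker genes given below were not tested as sets and are to be read beside these shares.

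For size, the median absolute log2 fold change of called chemokine genes was 0.93 in RIPK3-KO against WT, 1.299 in Vil against WT and 1.02 in RIPK3-KO against Vil, beside 0.55, 0.56 and 0.42 over all called genes in the same comparisons. The median signed log2 fold change of the 48, in the same order of comparisons, was -0.16, -0.33 and 0.22, beside 0.014, 0.016 and 0.011 over all genes tested. Of 30 ligands 9 rose and 14 fell in RIPK3-KO against WT, and 5 rose and 16 fell in Vil against WT. Of 18 receptors 5 rose and 4 fell in RIPK3-KO against WT, and 3 rose and 5 fell in Vil against WT. In RIPK3-KO against Vil 10 ligands rose and 5 fell, while 5 receptors rose and 0 fell by edgeR's test. These are counts without a test of ligands against receptors.

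Library by library, the groups can also be read without a fit. In RIPK3-KO against WT all 3 RIPK3-KO libraries lay above all 3 WT libraries for 16 of the 48 genes and below them for 20, against 63.5% of all genes without overlap, 31.6% higher and 31.9% lower. In Vil against WT 9 genes were higher and 22 lower without overlap, against 61.4% of all genes, 30.0% higher and 31.4% lower. In RIPK3-KO against Vil 16 were higher and 8 lower without overlap, against 40.8% of all genes, 21.5% higher and 19.2% lower.

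**Figure D1:**
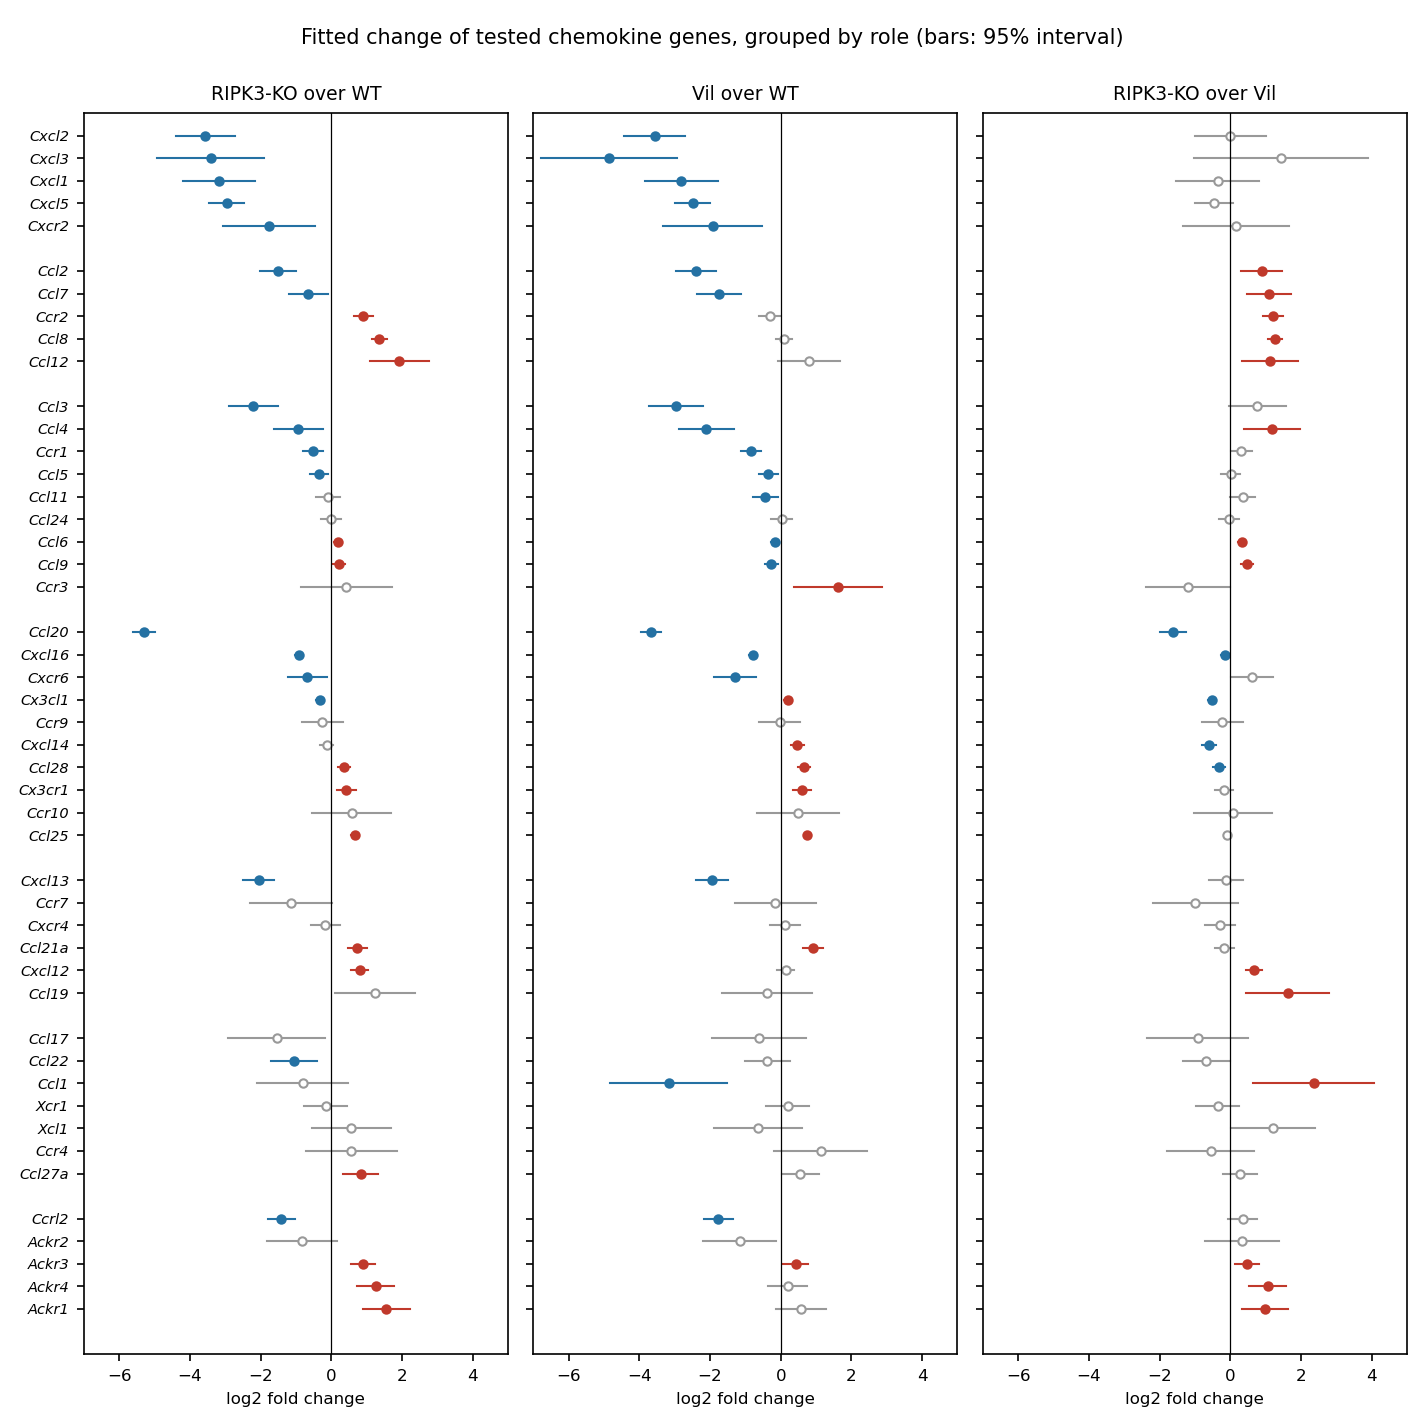
Fitted log2 fold change (x axis) of tested chemokine genes (y axis, grouped by role) in RIPK3-KO over WT, Vil over WT and RIPK3-KO over Vil. Bars are 95% intervals, filled red points rose, filled blue points fell and open grey points were not called. Points of the first group, the neutrophil attractants and Cxcr2, lie left of 0 in both comparisons with WT, while those of the second group, the monocyte attractants and Ccr2, lie right of 0 in RIPK3-KO over Vil.

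Levels of different genes were compared per length, in the deposited TPM, which divides by gene length and scales every library to the same sum. Ccl25, the small intestinal ligand of Ccr9 that draws T cells and IgA plasma cells to the gut, was the most abundant ligand in each group, at 289 ± 8.20 TPM in RIPK3-KO, 263 ± 5.84 TPM in Vil and 189 ± 2.83 TPM in WT (SD, n = 3 libraries each). It made up 35.1% of summed ligand TPM in RIPK3-KO, 40.2% in Vil and 23.3% in WT. Behind it the order differed. In RIPK3-KO the second ligand was Ccl8 (140.1 ± 10.9 TPM), a monocyte attractant, followed by Ccl6 (93.1 ± 0.711), a myeloid ligand found in rodents, and Cx3cl1 (52.0 ± 1.24), the membrane-bound ligand fractalkine. In Vil Cx3cl1 (63.9 ± 2.83 TPM) and Ccl6 (63.1 ± 0.898) were level within their spread, and Ccl8 followed (50.02 ± 3.72). In WT Ccl6 (85.3 ± 0.937 TPM) and Ccl20 (82.3 ± 3.46), which attracts cells bearing Ccr6 to epithelium, were level within their spread and stood above Cx3cl1 (67.7 ± 2.79). Ccl20 was the third ligand in WT, but ranked 23 in RIPK3-KO at 2.004 ± 0.668 TPM and 13 in Vil at 5.32 ± 0.544 TPM.

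Receptors were far less abundant than ligands, with a summed level of 49.9 ± 1.52 TPM in RIPK3-KO, 33.5 ± 1.80 TPM in Vil and 53.5 ± 2.48 TPM in WT over 22 receptors, against 822 ± 16.5 TPM in RIPK3-KO, 653 ± 13.1 TPM in Vil and 812 ± 10.1 TPM in WT over 35 ligands (SD, n = 3 libraries each). Cx3cr1, the fractalkine receptor of resident intestinal macrophages, led the receptors in RIPK3-KO (6.72 ± 0.468 TPM) and Vil (6.49 ± 0.761 TPM). Ccrl2, a non-signalling receptor induced in activated myeloid cells, led in WT at 11.1 ± 1.33 TPM. TPM totals should be read within a group: over 12548 genes with at least 1 CPM in every library, TPM stood at 0.805 to 0.842 of the WT scale in Vil and 0.930 to 0.985 in RIPK3-KO relative to CPM. Comparisons between groups below therefore use CPM. Among called genes the mean TPM pointed the other way from CPM for Cx3cl1 in Vil against WT and for Cxcl16 in RIPK3-KO against Vil.

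**Figure D2:**
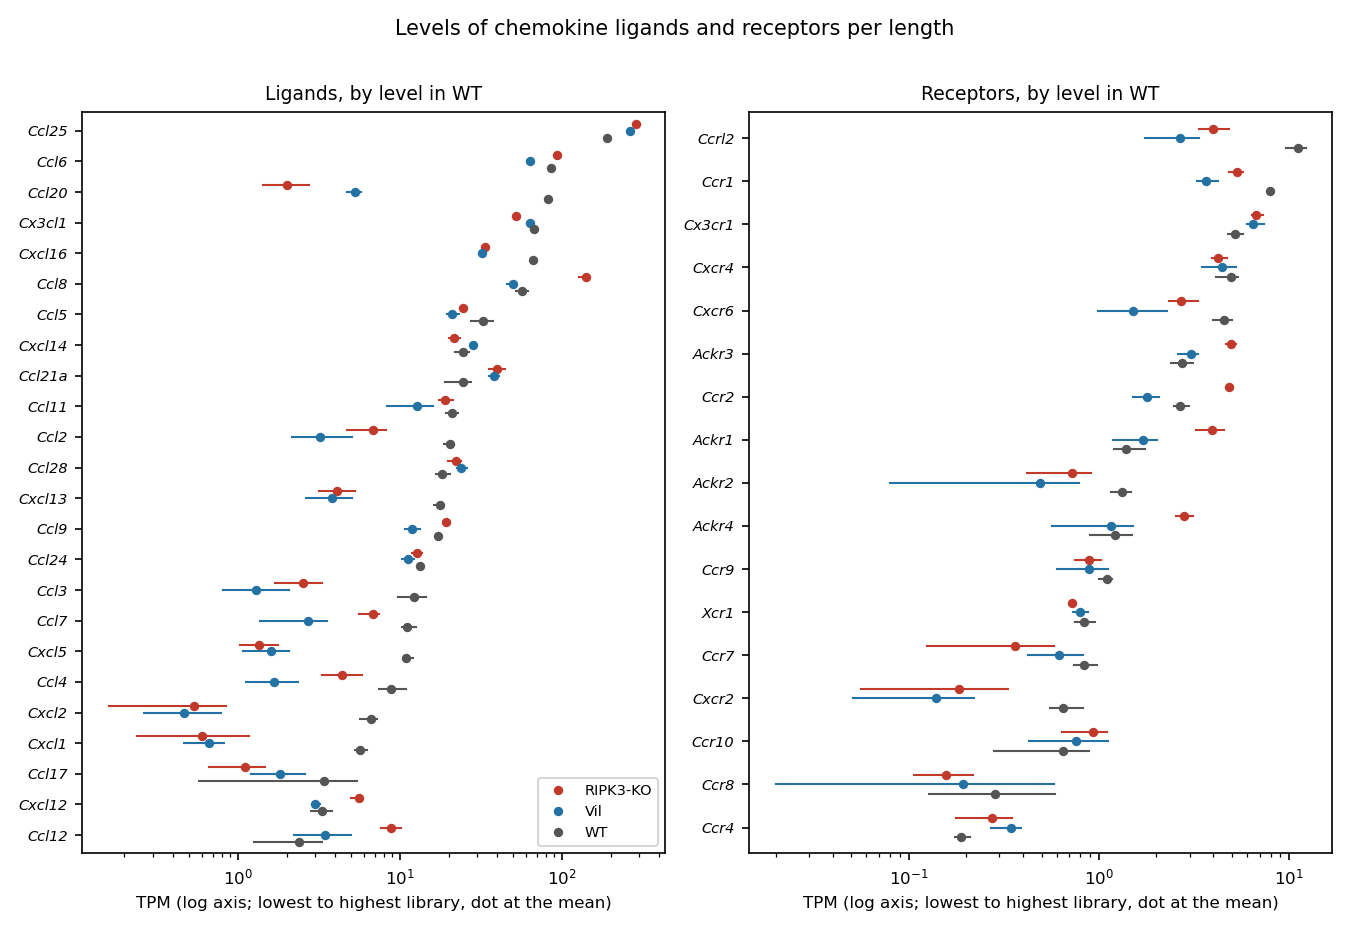
TPM on a log axis (x axis) for the ligands and receptors most abundant in WT (y axis), with a dot at the group mean and a line from the lowest to the highest of 3 libraries. A line that includes a library at 0 starts at the left end of its axis. Ccl25 is highest in each group, and Ccl20, the third ligand in WT, lies far to the left in RIPK3-KO and Vil.

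The neutrophil attractants fell in RIPK3-KO against WT and in Vil against WT. Cxcl1, Cxcl2, Cxcl3 and Cxcl5 are CXC ligands with a Glu-Leu-Arg motif that act through Cxcr2, the receptor that brings neutrophils out of blood. Cxcl1 counted 0.485, 0.158 and 0.0944 CPM in RIPK3-KO, 0.338, 0.381 and 0.215 CPM in Vil and 2.16, 2.41 and 2.05 CPM in WT libraries. Cxcl2 counted 0.727, 0.132 and 0.496 CPM in RIPK3-KO, 0.338, 0.763 and 0.251 CPM in Vil and 5.80, 5.69 and 4.58 CPM in WT libraries. Cxcl5 counted 0.834, 1.37 and 0.992 CPM in RIPK3-KO, 1.95, 1.53 and 0.969 CPM in Vil and 7.90, 7.78 and 9.16 CPM in WT libraries. For each of these ligands every RIPK3-KO and every Vil library lay below every WT library, and RIPK3-KO and Vil libraries overlapped. Cxcl1 fell 8.98-fold in RIPK3-KO against WT (log2 fold change -3.17, SE 0.50, adjusted p = 6.26e-06) and 7.04-fold in Vil against WT (log2 fold change -2.82, SE 0.50, adjusted p = 3.86e-05). Cxcl2 fell 11.8-fold in RIPK3-KO (log2 fold change -3.56, SE 0.40, adjusted p = 1.04e-07) and 11.8-fold in Vil (log2 fold change -3.56, SE 0.42, adjusted p = 2.34e-07). Cxcl5, a ligand known from epithelial cells, fell 7.74-fold in RIPK3-KO (log2 fold change -2.95, adjusted p = 1.07e-10) and 5.63-fold in Vil (log2 fold change -2.49, adjusted p = 3.18e-09).

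Cxcl3 was seen in few reads, with 4, 1 and 4 counts in RIPK3-KO, 0, 2 and 0 counts in Vil and 24, 32 and 23 counts in WT libraries. The ratio of summed counts, scaled to library size, was 0.0891 for RIPK3-KO over WT (95% interval 0.0393 to 0.178) and 0.0274 for Vil over WT (0.00326 to 0.102), intervals that cover counting error only. With counts halved, as for reads counted in pairs, they were 0.0977 (0.0301 to 0.248) and 0.0271 (0.000669 to 0.160). Cxcr2 counted 0.215, 0.423 and 0.0708 CPM in RIPK3-KO, 0.338, 0.0763 and 0.215 CPM in Vil and 1.02, 0.683 and 0.694 CPM in WT libraries. The WT libraries lay above all others, and Cxcr2 fell 3.39-fold in RIPK3-KO (log2 fold change -1.76, adjusted p = 0.0212) and 3.81-fold in Vil (log2 fold change -1.93, adjusted p = 0.0179) against WT. Each call for Cxcr2 rested on single libraries: in RIPK3-KO against WT it was lost without RIPK3-KO replicate 1 (adjusted p = 0.0652), RIPK3-KO replicate 3 (0.122) or WT replicate 1 (0.106), and in Vil against WT without Vil replicate 2 (0.0936), Vil replicate 3 (0.050) or WT replicate 1 (0.0856).

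Of the 7 genes of this group, Cxcl15 and Cxcr1 had too few counts to be tested. The 5 tested genes fell in each comparison with WT, with a median log2 fold change of -3.17 in RIPK3-KO and -2.82 in Vil. Cxcl1, Cxcl3 and Cxcr2 passed the count filter only through their WT libraries. The filter thus favoured a fall for these genes, and their share in the count of 5 is no separate support. Over all genes tested 28.1% fell in RIPK3-KO and 28.4% in Vil against WT, and 31.7% were called in RIPK3-KO against Vil. In RIPK3-KO against Vil edgeR's test called 0 of 5, and the intervals for the difference were wide, such as -0.99 to 1.00 on the log2 scale for Cxcl2 (adjusted p = 0.998). For Cxcl5 the difference passed the threshold without Vil replicate 3 (log2 fold change -0.70, adjusted p = 0.0494), against -0.46 and 0.207 with all libraries. Neutrophil markers moved with these ligands: 9 markers without Cxcr2 summed to 12.1 to 18.1 CPM in RIPK3-KO, 10.5 to 17.4 CPM in Vil and 58.9 to 67.3 CPM in WT, and 7 of 9 fell in RIPK3-KO and 6 of 9 in Vil. None was at 0 in all libraries, but Ly6g, a surface protein of mouse neutrophils, averaged 0.0359 CPM in RIPK3-KO and 0 CPM in Vil, against 3.08 CPM in WT. Their part in the fall of the ligands was not tested.

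**Figure D3:**
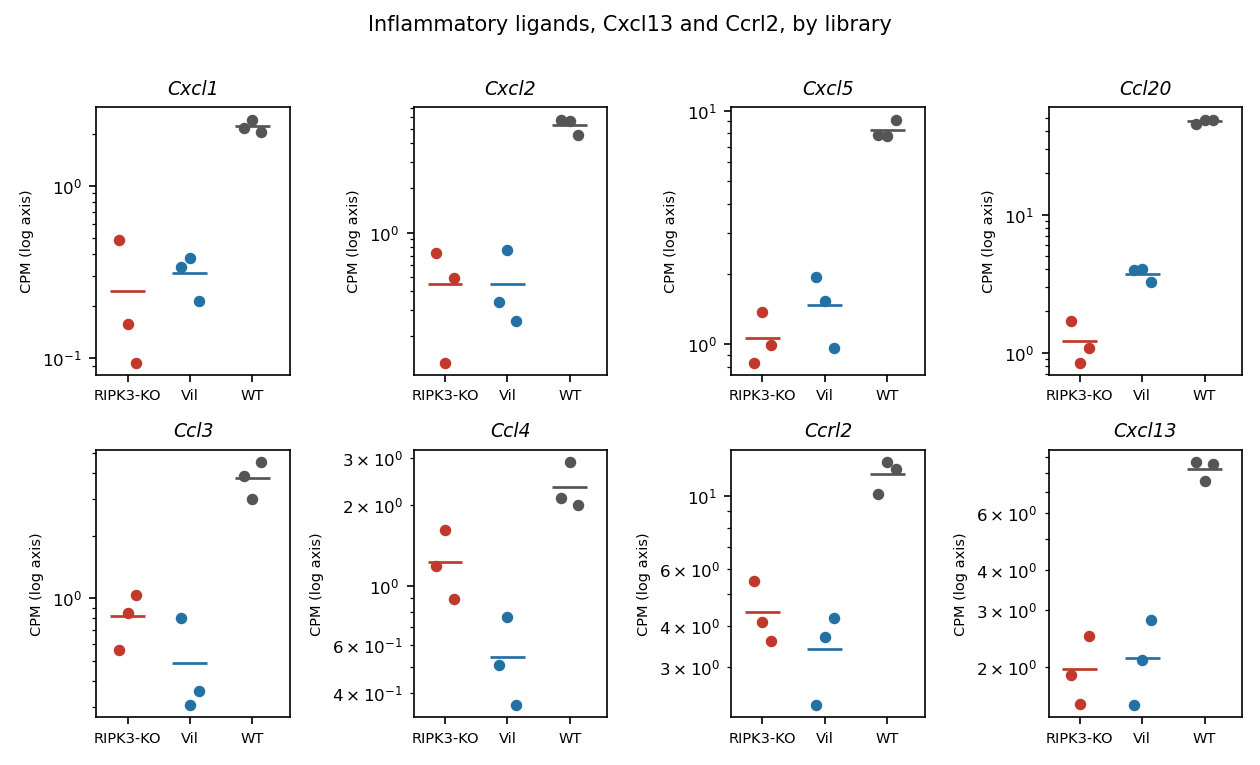
CPM per library on log axes (y axis; points are libraries, the line is the group mean) for Cxcl1, Cxcl2, Cxcl5, Ccl20, Ccl3, Ccl4, Ccrl2 and Cxcl13 in RIPK3-KO, Vil and WT. In each of the 8 panels the 3 WT libraries lie above all RIPK3-KO and Vil libraries, and RIPK3-KO and Vil are apart for Ccl20 and Ccl4.

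Cxcl5, Cxcl3, Cxcl15, Cxcl1 and Cxcl2 lie within 146.579 kb of mouse chromosome 5 (mm10, from 90759360 to 90905938), and Ccl20 lies on chromosome 1. The promoter windows of Cxcl1, Cxcl2, Cxcl3 and Ccl20 are shown because these genes had the largest falls in RIPK3-KO against WT among those with a matched window, and each holds a match to the consensus site of NF-kappaB, the transcription factor of the inflammatory response. The windows are RefSeq sequences of build GRCm38.p6 on the + strand, 250 bases before to 50 bases after the start, at chr5:90890995-90891294 for Cxcl1, chr5:90903649-90903948 for Cxcl2, chr5:90785851-90786150 for Cxcl3 and chr1:83116516-83116815 for Ccl20. Capitals mark the bases that match the NF-kappaB consensus on either strand.
Cxcl1: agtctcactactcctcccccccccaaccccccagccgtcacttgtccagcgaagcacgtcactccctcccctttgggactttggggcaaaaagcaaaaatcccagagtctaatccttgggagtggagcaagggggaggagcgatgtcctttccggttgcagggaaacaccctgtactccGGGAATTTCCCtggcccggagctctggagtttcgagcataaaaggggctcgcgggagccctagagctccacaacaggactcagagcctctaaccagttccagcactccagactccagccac
Cxcl2: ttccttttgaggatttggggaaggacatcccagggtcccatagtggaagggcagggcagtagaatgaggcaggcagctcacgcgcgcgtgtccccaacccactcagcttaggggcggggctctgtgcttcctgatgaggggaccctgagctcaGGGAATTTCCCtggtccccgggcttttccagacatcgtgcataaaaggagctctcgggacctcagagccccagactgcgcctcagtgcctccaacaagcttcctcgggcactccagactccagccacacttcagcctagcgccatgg
Cxcl3: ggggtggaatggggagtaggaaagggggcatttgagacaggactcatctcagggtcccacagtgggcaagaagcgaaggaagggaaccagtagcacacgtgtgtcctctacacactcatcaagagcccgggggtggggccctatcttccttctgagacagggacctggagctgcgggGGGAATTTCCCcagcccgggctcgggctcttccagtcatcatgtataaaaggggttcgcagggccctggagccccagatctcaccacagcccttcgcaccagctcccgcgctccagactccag
Ccl20: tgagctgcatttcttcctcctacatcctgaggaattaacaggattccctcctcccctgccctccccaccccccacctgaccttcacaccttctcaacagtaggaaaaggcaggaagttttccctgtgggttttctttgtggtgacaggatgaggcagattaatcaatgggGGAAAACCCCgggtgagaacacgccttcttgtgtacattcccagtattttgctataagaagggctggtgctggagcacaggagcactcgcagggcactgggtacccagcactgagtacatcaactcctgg

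In Cxcl1, Cxcl2 and Cxcl3 the same stretch of bases was matched once on each strand, in matches that overlap by all but 1 base. It began at base -71 in Cxcl1, -97 in Cxcl2 and -73 in Cxcl3, counted from the start of transcription. The Ccl20 match began at base -80. Among the 43 chemokine genes with a RefSeq promoter window 10 held an NF-kappaB match (23.26%), against 2211 of 27025 windows of all genes (8.181%). The window nearest to the start of the deposited gene was taken, with no limit on distance. Those of Ccl1, Ccr9 and Ccl21b lay 125878, 88772 and 82647 bases from it, and Ccl1 is among the 10. The other 6 were Ccrl2, Ackr2, Ccr1, Ccr3, Ccl1 and Ccl9, among which Ccl9 rose in RIPK3-KO and Ccr3 rose in Vil against WT. Ccl3, Cxcl13 and Cxcr2, the genes with a window that came next in size of fall in RIPK3-KO against WT, held no NF-kappaB match. Whether a match goes with a fall was not tested. The interferon-stimulated response element core GAAANNGAAA was found in Ccl19 and Cxcl14 and in 3.489% of all windows, and the AP-1 site TGANTCA in 5 of 43 and in 7.933% of all windows, both strands searched. A match describes letters in a window and not a site in use.

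Ccl20 showed the largest fall of all 48 tested chemokine genes in RIPK3-KO against WT. Ccl20 counted 1.70, 0.845 and 1.09 CPM in RIPK3-KO, 3.93, 4.01 and 3.23 CPM in Vil and 45.5, 48.7 and 48.2 CPM in WT libraries. The 3 groups did not overlap, with RIPK3-KO lowest and WT highest. Ccl20 fell 39.3-fold in RIPK3-KO against WT (log2 fold change -5.30, SE 0.15, adjusted p = 4.2e-20), 12.8-fold in Vil against WT (log2 fold change -3.68, SE 0.13, adjusted p = 1.53e-17) and 3.08-fold in RIPK3-KO against Vil (log2 fold change -1.62, SE 0.18, adjusted p = 8.71e-08). Its receptor Ccr6 was at 0, 1 and 10 counts in RIPK3-KO, 0, 5 and 9 counts in Vil and 3, 0 and 0 counts in WT libraries and was not tested.

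The other epithelial ligands moved by less and in both directions. Ccl25 counted 347, 317 and 312 CPM in RIPK3-KO, 348, 352 and 335 CPM in Vil and 203, 203 and 209.8 CPM in WT libraries. Ccl28 counted 32.2, 36.6 and 36.7 CPM in RIPK3-KO, 42.4, 41.5 and 47.0 CPM in Vil and 31.2, 24.99 and 26.7 CPM in WT libraries. Ccl28, a mucosal ligand of Ccr10 and Ccr3 that draws IgA plasma cells, and Ccl25 were each higher in every RIPK3-KO and Vil library than in every WT library. Ccl25 rose 1.58-fold in RIPK3-KO against WT (log2 fold change 0.66, adjusted p = 1.02e-11) and 1.68-fold in Vil against WT (log2 fold change 0.75, adjusted p = 1.25e-12), and 204 exonic bases overlap Elavl1 on the other strand. Between RIPK3-KO and Vil Ccl25 was not called (log2 fold change -0.084, 95% interval -0.18 to 0.014, adjusted p = 0.194), but without RIPK3-KO replicate 1 it was (adjusted p = 0.0222). Ccl28 rose 1.27-fold in RIPK3-KO (adjusted p = 0.000867) and 1.58-fold in Vil (adjusted p = 2.58e-07) against WT, and fell 1.24-fold in RIPK3-KO against Vil (log2 fold change -0.31, adjusted p = 0.00411).

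Neither of their main receptors was called against WT. Ccr9, the receptor of Ccl25, averaged 1.76 ± 0.266 CPM in RIPK3-KO, 2.07 ± 0.657 CPM in Vil and 2.11 ± 0.169 CPM in WT (SD, n = 3 libraries each), and its interval for RIPK3-KO over WT was -0.83 to 0.32 on the log2 scale (adjusted p = 0.458). Its gene model shares 1954 bases with genes on the other strand, among them Slc6a20a, so its counts are uncertain. Ccr10, the receptor of Ccl28, was below 1 CPM in each library and was not called (adjusted p = 0.382 in RIPK3-KO and 0.468 in Vil against WT).

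Cx3cl1 counted 87.3, 87.6 and 83.9 CPM in RIPK3-KO, 121, 123 and 126 CPM in Vil and 111, 109.8 and 104 CPM in WT libraries. The 3 groups did not overlap, with RIPK3-KO lowest and Vil highest. Cx3cl1, which tethers cells bearing Cx3cr1 to epithelium and endothelium, fell 1.252-fold in RIPK3-KO against WT (log2 fold change -0.32, SE 0.049, adjusted p = 4.14e-06), rose 1.14-fold in Vil against WT (log2 fold change 0.19, SE 0.049, adjusted p = 0.00176) and fell 1.43-fold in RIPK3-KO against Vil (log2 fold change -0.52, adjusted p = 5.3e-09). The sign of the rise in Vil depended on the measure, since the deposited TPM were 63.9 ± 2.83 in Vil and 67.7 ± 2.79 in WT (SD, n = 3 libraries each). These TPM ran lower in Vil than in WT relative to CPM, as given above. Under all alternatives for the counts, DESeq2 and limma-voom among them, the rise kept its call (adjusted p 0.000267 to 0.0231). Cx3cr1 counted 10.7, 9.96 and 11.2 CPM in RIPK3-KO, 13.9, 11.02 and 10.98 CPM in Vil and 7.78, 8.56 and 7.32 CPM in WT libraries. Every RIPK3-KO and Vil library was above every WT library. Cx3cr1 rose 1.35-fold in RIPK3-KO (log2 fold change 0.43, adjusted p = 0.00557) and 1.51-fold in Vil (log2 fold change 0.60, adjusted p = 0.000306) against WT.

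Cxcl16 counted 42.4, 42.1 and 44.2 CPM in RIPK3-KO, 48.6, 46.8 and 47.3 CPM in Vil and 82.1, 81.7 and 80.4 CPM in WT libraries. WT libraries were about level with each other and above all others, and RIPK3-KO libraries were below Vil libraries. Cxcl16, a membrane-bound ligand that also acts as a scavenger receptor for oxidised lipid, fell 1.90-fold in RIPK3-KO (log2 fold change -0.92, adjusted p = 2.68e-13) and 1.71-fold in Vil (log2 fold change -0.78, adjusted p = 1.43e-11) against WT, and 552 exonic bases overlap Zmynd15 on the other strand. The fall in RIPK3-KO against Vil was 1.11-fold at an adjusted p of 0.0495, and it was lost without any single library (0.0591 to 0.141), with upper-quartile scaling (0.0901), without a count filter (0.162), with only the 2 groups in the fit (0.104), with limma-voom (0.0584) and with the replicate number as a block (0.0519). The deposited TPM of Cxcl16 pointed the other way, at 33.7 ± 1.65 in RIPK3-KO and 31.99 ± 0.401 in Vil (SD, n = 3 libraries each). Cxcr6 counted 2.75, 1.98 and 1.82 CPM in RIPK3-KO, 1.23, 0.916 and 2.08 CPM in Vil and 3.07, 3.51 and 3.88 CPM in WT libraries. Cxcr6, the receptor of Cxcl16 on effector and tissue-resident T cells, was lower in every RIPK3-KO and Vil library than in every WT library and fell 1.60-fold in RIPK3-KO (adjusted p = 0.0356) and 2.46-fold in Vil (adjusted p = 0.000443) against WT. T cell markers, given with Ccl5 below, also summed lower in RIPK3-KO and Vil than in WT, and their part in the level of Cxcr6 was not tested. The RIPK3-KO call was lost with DESeq2 (0.0578), upper-quartile scaling (0.0553), and without RIPK3-KO replicate 2 (0.106), RIPK3-KO replicate 3 (0.132), WT replicate 2 (0.0795) or WT replicate 3 (0.119). In RIPK3-KO against Vil it was not called (log2 fold change 0.62, adjusted p = 0.108), but without Vil replicate 3 it was (log2 fold change 1.02, adjusted p = 0.0143).

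Cxcl14 counted 15.9, 16.4 and 17.6 CPM in RIPK3-KO, 26.9, 24.6 and 24.4 CPM in Vil and 16.4, 19.6 and 18.7 CPM in WT libraries. Cxcl14, a ligand made by resting epithelium, was higher in every Vil library than in any other, while RIPK3-KO and WT overlapped. It rose 1.39-fold in Vil against WT (log2 fold change 0.47, adjusted p = 0.000103) and fell 1.52-fold in RIPK3-KO against Vil (log2 fold change -0.60, adjusted p = 1.05e-05). Over the 10 tested epithelial and gut-homing genes 3 rose and 4 fell in RIPK3-KO against WT, 5 rose and 3 fell in Vil against WT, and 0 rose and 5 fell in RIPK3-KO against Vil, where Ccl20, Cx3cl1, Cxcl16, Cxcl14 and Ccl28 fell. Of all genes tested 55.4%, 55.6% and 31.7% were called in the same order of comparisons. In that last comparison 7 of 11 epithelial markers fell and 2 rose, while their summed level of 16650 to 17512 CPM in RIPK3-KO overlapped that of 16958 to 17775 CPM in Vil. The part of these markers in the 5 falls was not tested.

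**Figure D4:**
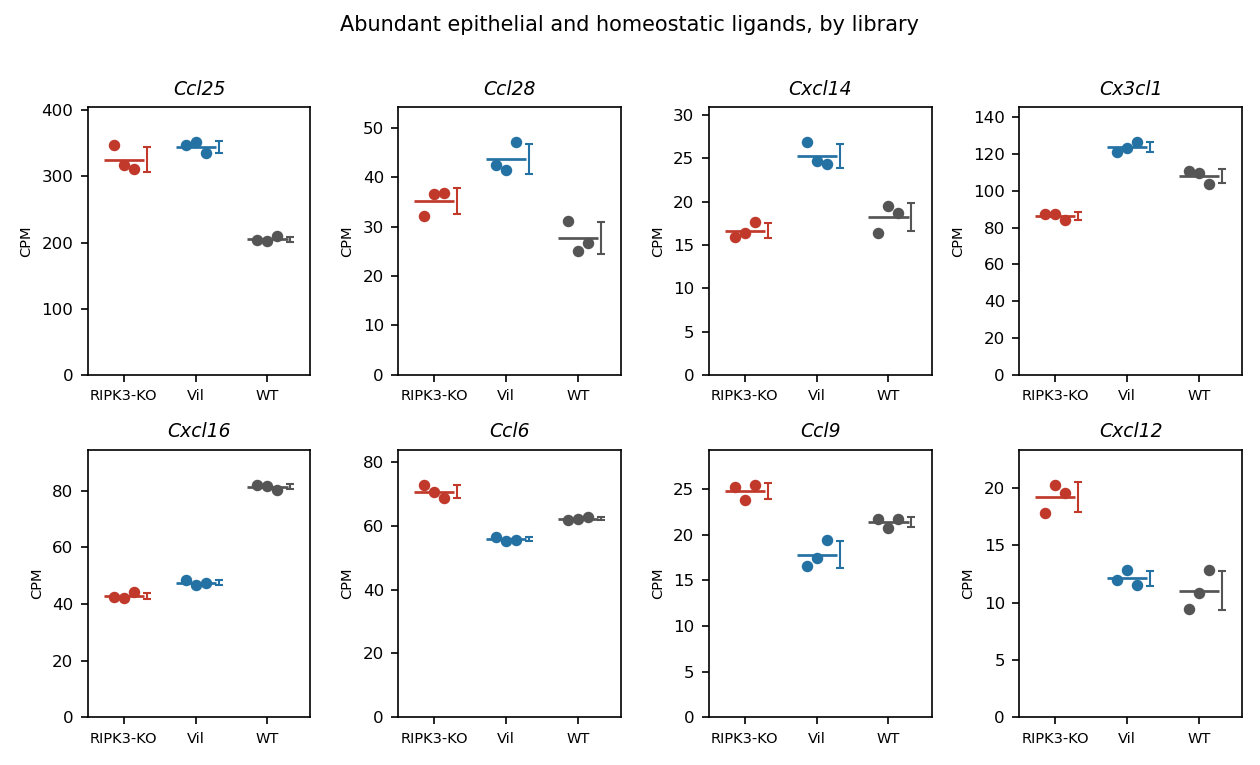
CPM per library (y axis from 0; points are libraries, the line is the group mean and the bar 1 SD) for Ccl25, Ccl28, Cxcl14, Cx3cl1, Cxcl16, Ccl6, Ccl9 and Cxcl12 in RIPK3-KO, Vil and WT. Cx3cl1, Ccl6 and Ccl9 show the 3 groups apart, with RIPK3-KO and Vil on opposite sides of WT.

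The monocyte attractants split within 1 gene cluster. Ccl2, Ccl7, Ccl12 and Ccl8 are ligands of Ccr2, the receptor that brings inflammatory monocytes from bone marrow and blood into tissue, although Ccl8 acts in mice mainly on Ccr8. They lie with Ccl11 in 81.229 kb of chromosome 11 (mm10, from 82035571 to 82116799). Ccl2 counted 4.06, 2.24 and 3.61 CPM in RIPK3-KO, 1.35, 2.82 and 1.18 CPM in Vil and 8.66, 9.83 and 9.81 CPM in WT libraries. Ccl7 counted 2.58, 1.87 and 2.43 CPM in RIPK3-KO, 1.44, 0.534 and 1.26 CPM in Vil and 3.37, 3.38 and 4.09 CPM in WT libraries. For both genes the WT libraries were the highest, and for Ccl7 the RIPK3-KO libraries were also above the Vil libraries, while for Ccl2 RIPK3-KO and Vil overlapped. Ccl2 fell 2.85-fold in RIPK3-KO (log2 fold change -1.51, adjusted p = 2.68e-05) and 5.26-fold in Vil (log2 fold change -2.40, adjusted p = 2.87e-07) against WT. Ccl7 fell 3.36-fold in Vil against WT (log2 fold change -1.75, adjusted p = 1.98e-05). Its fall in RIPK3-KO against WT was 1.57-fold (adjusted p = 0.0427), a call lost with DESeq2 (0.0645), with upper-quartile scaling (0.0658), and without RIPK3-KO replicate 2 (0.157), RIPK3-KO replicate 3 (0.0706), WT replicate 1 (0.066), WT replicate 2 (0.0676) or WT replicate 3 (0.147).

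Ccl8 counted 33.3, 30.5 and 27.0 CPM in RIPK3-KO, 11.8, 13.2 and 12.7 CPM in Vil and 11.9, 10.7 and 12.8 CPM in WT libraries. Ccl12 counted 2.37, 1.72 and 1.94 CPM in RIPK3-KO, 1.35, 0.839 and 0.574 CPM in Vil and 0.571, 0.716 and 0.277 CPM in WT libraries. Every RIPK3-KO library was above every other library for both genes, and Vil and WT overlapped. Ccl8 rose 2.57-fold in RIPK3-KO against WT (log2 fold change 1.36, SE 0.10, adjusted p = 1.45e-11) and 2.41-fold against Vil (log2 fold change 1.27, SE 0.10, adjusted p = 1.68e-10), and in Vil against WT it was not called (log2 fold change 0.094, 95% interval -0.12 to 0.31, adjusted p = 0.472). Ccl12, a Ccr2 ligand found in mice, rose 3.81-fold in RIPK3-KO against WT (log2 fold change 1.93, adjusted p = 0.000228). In Vil against WT Ccl12 was not called (log2 fold change 0.80, adjusted p = 0.115), but without Vil replicate 3 it was (adjusted p = 0.0483). Within a library the ratio of Ccl8 to Ccl2 counts was 8.20, 13.6 and 7.47 in RIPK3-KO, 8.72, 4.66 and 10.8 in Vil and 1.37, 1.09 and 1.31 in WT. That of Ccl12 to Ccl2 was 0.583, 0.765 and 0.536 in RIPK3-KO, 1, 0.297 and 0.485 in Vil and 0.0660, 0.0729 and 0.0283 in WT. Both ratios, which need no scaling between libraries, were higher in every RIPK3-KO and Vil library than in every WT library.

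Ccr2 counted 13.1, 13.6 and 12.4 CPM in RIPK3-KO, 4.86, 6.45 and 5.49 CPM in Vil and 7.72, 6.67 and 6.49 CPM in WT libraries. Every RIPK3-KO library was above every WT library, and every WT library was above every Vil library. Ccr2 rose 1.87-fold in RIPK3-KO against WT (log2 fold change 0.90, SE 0.13, adjusted p = 2.25e-06) and 2.32-fold in RIPK3-KO against Vil (log2 fold change 1.21, SE 0.14, adjusted p = 8.8e-08). In Vil against WT it was not called (log2 fold change -0.31, adjusted p = 0.0614), but without Vil replicate 2 it was (log2 fold change -0.42, adjusted p = 0.0234). All 5 genes of this group rose in RIPK3-KO against Vil, with a median log2 fold change of 1.13. Of all genes tested 16.6% rose in that comparison. The calls for Ccl2 and Ccl12 rested on single libraries. Ccl2 (log2 fold change 0.89, adjusted p = 0.0183) was lost without RIPK3-KO replicate 1 (adjusted p = 0.067), RIPK3-KO replicate 3 (0.0746), Vil replicate 1 (0.086) or Vil replicate 3 (0.0902). Ccl12 (log2 fold change 1.13, adjusted p = 0.0269) was lost without RIPK3-KO replicate 1 (0.0997), RIPK3-KO replicate 3 (0.0637), Vil replicate 2 (0.0772) or Vil replicate 3 (0.116).

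Most macrophage and monocyte markers rose with these genes in RIPK3-KO against Vil. The 12 markers, none of them at 0 in all libraries, summed to 506 to 539 CPM in RIPK3-KO, 315 to 334 CPM in Vil and 487 to 501 CPM in WT, and 8 of 12 rose and 0 fell in RIPK3-KO against Vil by edgeR's test. Against WT 5 markers rose and 3 fell in RIPK3-KO, where Ccl8, Ccl12 and Ccr2 rose and Ccl2 and Ccl7 fell. In Vil against WT 1 marker rose and 11 fell, where Ccl2 and Ccl7 fell and Ccl8, Ccl12 and Ccr2 were not called. Over all genes tested 55.4% were called in RIPK3-KO and 55.6% in Vil against WT, and 31.7% in RIPK3-KO against Vil. Ly6c2, a marker of inflammatory monocytes, averaged 3.17 CPM in RIPK3-KO, 2.599 CPM in Vil and 7.08 CPM in WT, while Mrc1, the mannose receptor of tissue macrophages, averaged 21.9 CPM in RIPK3-KO, 10.5 CPM in Vil and 14.7 CPM in WT. Ly6c2 fell in both comparisons with WT, where Ccr2 rose in RIPK3-KO. Fibroblast markers, from cells that can also make Ccl2 and Ccl7, summed to 559 to 598 CPM in RIPK3-KO, 373 to 385 CPM in Vil and 355 to 364 CPM in WT. The part of these cells in the levels of the monocyte attractants was not tested.

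**Figure D5:**
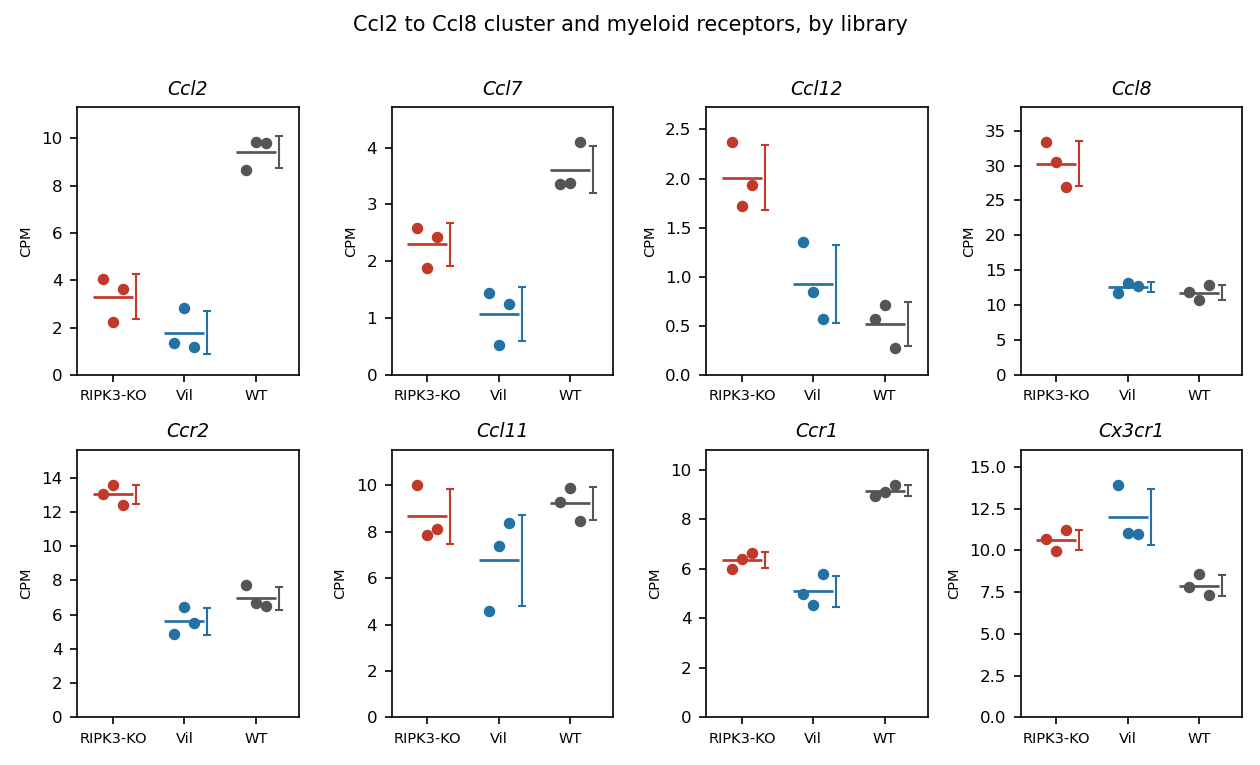
CPM per library (y axis from 0; points are libraries, the line is the group mean and the bar 1 SD) for Ccl2, Ccl7, Ccl12, Ccl8, Ccr2, Ccl11, Ccr1 and Cx3cr1 in RIPK3-KO, Vil and WT. WT is highest for Ccl2 and Ccl7 and RIPK3-KO is highest for Ccl12, Ccl8 and Ccr2.

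Among the inflammatory CC ligands and their receptors, 10 genes were tested: 2 rose and 4 fell in RIPK3-KO against WT, 1 rose and 8 fell in Vil against WT, and 4 rose and 0 fell in RIPK3-KO against Vil by edgeR's test. Of all genes tested 55.4%, 55.6% and 31.7% were called in the same order of comparisons. Ccl3 counted 0.565, 0.845 and 1.04 CPM in RIPK3-KO, 0.804, 0.305 and 0.359 CPM in Vil and 3.85, 2.99 and 4.51 CPM in WT libraries. Ccl4 counted 1.18, 1.61 and 0.897 CPM in RIPK3-KO, 0.508, 0.763 and 0.359 CPM in Vil and 2.13, 2.90 and 2.01 CPM in WT libraries. Ccl3 and Ccl4, made by activated macrophages and T cells, were lower in every RIPK3-KO and Vil library than in every WT library, and for Ccl4 the RIPK3-KO libraries were above the Vil libraries. Ccl3 fell 4.60-fold in RIPK3-KO (log2 fold change -2.20, adjusted p = 4.19e-06) and 7.80-fold in Vil (log2 fold change -2.96, adjusted p = 2.39e-07) against WT. Between RIPK3-KO and Vil it was not called (log2 fold change 0.76, adjusted p = 0.150), but without Vil replicate 1 it was (adjusted p = 0.0262). Ccl4 fell 4.31-fold in Vil against WT (log2 fold change -2.11, adjusted p = 3.8e-05). Its fall of 1.91-fold in RIPK3-KO against WT (adjusted p = 0.0212) was lost without RIPK3-KO replicate 1 (0.0525), RIPK3-KO replicate 3 (0.0982) or WT replicate 2 (0.114). Its rise of 2.26-fold in RIPK3-KO against Vil (adjusted p = 0.0200) was lost without RIPK3-KO replicate 2 (0.108) or Vil replicate 3 (0.0853), with only the 2 groups in the fit (0.0535) and with limma-voom (0.0564).

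Ccl5 counted 9.91, 10.1 and 9.96 CPM in RIPK3-KO, 9.47, 10.9 and 9.29 CPM in Vil and 12.6, 10.6 and 14.8 CPM in WT libraries. Ccl5, a T cell and natural killer cell product, was lower in every RIPK3-KO library than in every WT library, and Vil and WT overlapped. It fell 1.26-fold in RIPK3-KO (adjusted p = 0.0236) and 1.28-fold in Vil (adjusted p = 0.0218) against WT. The RIPK3-KO call was lost with upper-quartile scaling (0.060) and without RIPK3-KO replicate 3 (0.0562), WT replicate 1 (0.0534) or WT replicate 3 (0.192), and the Vil call without Vil replicate 1 (0.0576), Vil replicate 3 (0.0758) or WT replicate 3 (0.168). T cell markers, 14 genes with none at 0 in all libraries, summed to 42.1 to 47.7 CPM in RIPK3-KO, 38.1 to 41.2 CPM in Vil and 63.7 to 69.9 CPM in WT. The part of T cells in the level of Ccl5 was not tested.

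Ccr1 counted 6.00, 6.42 and 6.66 CPM in RIPK3-KO, 4.99, 4.54 and 5.78 CPM in Vil and 8.96, 9.11 and 9.40 CPM in WT libraries. Ccr1, on monocytes and neutrophils, was highest in WT and lowest in Vil without overlap. Ccr1 fell 1.44-fold in RIPK3-KO (log2 fold change -0.52, adjusted p = 0.00222) and 1.79-fold in Vil (log2 fold change -0.84, adjusted p = 2.14e-05) against WT. Between RIPK3-KO and Vil Ccr1 was not called (log2 fold change 0.32, adjusted p = 0.100), but without Vil replicate 3 it was (adjusted p = 0.048).

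Ccl6 counted 72.7, 70.5 and 68.6 CPM in RIPK3-KO, 56.5, 55.3 and 55.5 CPM in Vil and 61.7, 62.0 and 62.7 CPM in WT libraries. Ccl9 counted 25.2, 23.8 and 25.5 CPM in RIPK3-KO, 16.5, 17.4 and 19.4 CPM in Vil and 21.7, 20.7 and 21.7 CPM in WT libraries. Ccl6 and Ccl9, myeloid ligands of Ccr1, were highest in RIPK3-KO and lowest in Vil, with WT between them and no overlap. Ccl6 rose 1.14-fold in RIPK3-KO against WT (log2 fold change 0.18, adjusted p = 0.00547), fell 1.11-fold in Vil against WT (log2 fold change -0.16, adjusted p = 0.0186) and rose 1.27-fold in RIPK3-KO against Vil (log2 fold change 0.34, adjusted p = 2.28e-05). The Vil call against WT was lost with upper-quartile scaling (adjusted p = 0.0748) and without Vil replicate 2 (0.0518). Ccl9 rose 1.16-fold in RIPK3-KO against WT (adjusted p = 0.0329), fell 1.20-fold in Vil against WT (adjusted p = 0.0129) and rose 1.39-fold in RIPK3-KO against Vil (log2 fold change 0.48, adjusted p = 9.77e-05). The first of these calls was lost with DESeq2 (0.054), without a count filter (0.0609), and without RIPK3-KO replicate 1 (0.075), RIPK3-KO replicate 3 (0.101), WT replicate 1 (0.0623), WT replicate 2 (0.114) or WT replicate 3 (0.063), and the second without Vil replicate 1 (0.0608).

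Of the eosinophil attractants, Ccl11 fell in Vil against WT and Ccl24 was called in no comparison. Ccl11 counted 10.01, 7.84 and 8.12 CPM in RIPK3-KO, 4.57, 7.36 and 8.36 CPM in Vil and 9.29, 9.89 and 8.46 CPM in WT libraries. Ccl11 was lower in Vil than in WT without overlap and overlapped between RIPK3-KO and the others, and it fell 1.36-fold in Vil against WT (adjusted p = 0.0316). That call was lost with DESeq2 (0.0546), with upper-quartile scaling (0.0501), and without Vil replicate 1 (0.213), WT replicate 1 (0.0742) or WT replicate 2 (0.105). In RIPK3-KO against Vil Ccl11 was not called (log2 fold change 0.35, adjusted p = 0.125), but without Vil replicate 3 it was (adjusted p = 0.0291). Ccl24 averaged 6.98 ± 0.564 CPM in RIPK3-KO, 7.18 ± 0.734 CPM in Vil and 7.04 ± 0.0365 CPM in WT (SD, n = 3 libraries each) and was not called, with 95% intervals of -0.30 to 0.27 for RIPK3-KO over WT and -0.26 to 0.32 for Vil over WT on the log2 scale. Ccr3 counted 0.323, 0.264 and 0.331 CPM in RIPK3-KO, 0.677, 0.381 and 1.04 CPM in Vil and 0.240, 0.195 and 0.243 CPM in WT libraries. Ccr3, the eosinophil receptor, was low throughout, highest in Vil and lowest in WT without overlap, and rose 3.07-fold in Vil against WT (adjusted p = 0.0264). The call was lost without a count filter (0.0678) and without Vil replicate 1 (0.0521), Vil replicate 3 (0.164), WT replicate 1 (0.0679), WT replicate 2 (0.0871) or WT replicate 3 (0.0644).

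Of the lymphoid and homeostatic genes, Cxcl13, which draws B cells into follicles through Cxcr5, changed most. Cxcl13 counted 1.88, 1.53 and 2.50 CPM in RIPK3-KO, 1.52, 2.098 and 2.80 CPM in Vil and 8.66, 7.55 and 8.53 CPM in WT libraries. WT libraries were above all others, and RIPK3-KO and Vil overlapped. Cxcl13 fell 4.16-fold in RIPK3-KO (log2 fold change -2.06, SE 0.22, adjusted p = 1.04e-08) and 3.82-fold in Vil (log2 fold change -1.93, SE 0.22, adjusted p = 5.16e-08) against WT. Cxcr5 had 4, 2 and 8 counts in RIPK3-KO, 14, 14 and 2 counts in Vil and 2, 2 and 6 counts in WT libraries and was not tested. The 10 B and plasma cell markers, none at 0 in all libraries, summed to 166 to 181 CPM in RIPK3-KO, 172 to 186 CPM in Vil and 258 to 268 CPM in WT. Only 7 of these markers were tested. Against WT 0 rose and 4 fell in RIPK3-KO, and 1 rose, 2 fell and 4 were not called in Vil by edgeR's test. Of all genes tested 55.4% were called in RIPK3-KO and 55.6% in Vil against WT. The part of B and plasma cells in the level of Cxcl13 was not tested.

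Cxcl12 counted 17.8, 20.3 and 19.6 CPM in RIPK3-KO, 12.0, 12.9 and 11.5 CPM in Vil and 9.44, 10.8 and 12.8 CPM in WT libraries. Ccl21a counted 14.6, 16.2 and 12.7 CPM in RIPK3-KO, 18.1, 15.8 and 15.0 CPM in Vil and 9.71, 9.501 and 6.73 CPM in WT libraries. Cxcl12, the stromal ligand of Cxcr4 and Ackr3, was higher in every RIPK3-KO library than in any other, with Vil and WT overlapping, while Ccl21a, the lymphatic ligand of Ccr7, was higher in every RIPK3-KO and Vil library than in every WT library. Cxcl12 rose 1.74-fold in RIPK3-KO against WT (log2 fold change 0.80, adjusted p = 1.11e-06) and 1.58-fold against Vil (log2 fold change 0.66, adjusted p = 4.44e-05), and in Vil against WT it was not called (log2 fold change 0.14, 95% interval -0.10 to 0.38, adjusted p = 0.324). Ccl21a rose 1.67-fold in RIPK3-KO (log2 fold change 0.74, adjusted p = 3.53e-05) and 1.88-fold in Vil (log2 fold change 0.91, adjusted p = 2.91e-06) against WT, but near-identical gene copies exist, such as Ccl21b, so its counts are uncertain. Adipocyte, fibroblast and smooth muscle markers were also highest in RIPK3-KO, as given above. The 8 endothelial and lymphatic markers summed to 133 to 152 CPM in RIPK3-KO, 118 to 128 CPM in Vil and 101 to 108 CPM in WT. Their part in the rise of Cxcl12 and Ccl21a was not tested.

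Ccl19 counted 1.40, 0.687 and 0.708 CPM in RIPK3-KO, 0.508, 0.153 and 0.251 CPM in Vil and 0.541, 0.390 and 0.243 CPM in WT libraries. Ccl19, the other ligand of Ccr7, was higher in every RIPK3-KO library than in any other. It rose 3.07-fold in RIPK3-KO against Vil (adjusted p = 0.0333), a call lost without RIPK3-KO replicate 1 (0.198), RIPK3-KO replicate 3 (0.0511), Vil replicate 2 (0.140) or Vil replicate 3 (0.0959). In RIPK3-KO against WT it was not called (log2 fold change 1.23, adjusted p = 0.0591), but with only the 2 groups in the fit (0.0307), upper-quartile scaling (0.0486) or counts halved (0.0344) it was. Neither Ccr7, on naive T cells and migrating dendritic cells, nor Cxcr4, the widely expressed receptor of Cxcl12, was called in any comparison, with adjusted p of 0.0923, 0.834 and 0.212 for Ccr7 and 0.523, 0.643 and 0.329 for Cxcr4 in RIPK3-KO against WT, Vil against WT and RIPK3-KO against Vil. With limma-voom Ccr7 passed in RIPK3-KO against WT (adjusted p = 0.0464).

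Ccl22 and Ccl17 are ligands of Ccr4 and Ccl1 of Ccr8, receptors of type 2 helper, regulatory and skin-homing T cells. Ccl22 counted 0.808, 0.951 and 1.32 CPM in RIPK3-KO, 1.35, 1.79 and 1.79 CPM in Vil and 1.92, 1.76 and 2.77 CPM in WT libraries. Ccl1 counted 0.754, 0.290 and 0.189 CPM in RIPK3-KO, 0, 0.0763 and 0.144 CPM in Vil and 0.541, 0.618 and 1.01 CPM in WT libraries. Ccl22 was lower in every RIPK3-KO library than in any other, and Ccl1 was lower in every Vil library than in any other. Ccl22 fell 2.08-fold in RIPK3-KO against WT (log2 fold change -1.06, adjusted p = 0.00608), a call lost without WT replicate 3 (adjusted p = 0.052). Ccl1 had 6 counts in all in Vil libraries, against 66 in WT, a scaled ratio of 0.0984 (95% interval 0.0349 to 0.226; 0.0193 to 0.314 with counts halved), and fell at an adjusted p of 0.00173. Its rise in RIPK3-KO against Vil, where the scaled ratio was 5.66 (2.41 to 16.2), had an adjusted p of 0.0314 and was lost without RIPK3-KO replicate 1 (0.218), Vil replicate 1 (0.123) or Vil replicate 2 (0.0849) and with limma-voom (0.0722). Ccl17, the other ligand of Ccr4, counted 0.269, 0.317 and 0.142 CPM in RIPK3-KO, 0.423, 0.305 and 0.646 CPM in Vil and 0.120, 0.879 and 1.14 CPM in WT libraries, so WT replicate 1 lay below every other library and the other 2 WT libraries above them. It was not called in RIPK3-KO against WT (log2 fold change -1.54, adjusted p = 0.0526), but with only the 2 groups in the fit (0.0436) or without WT replicate 1 (0.00999) it was.

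Ccl27a counted 3.53, 3.22 and 2.64 CPM in RIPK3-KO, 2.20, 2.48 and 3.05 CPM in Vil and 1.56, 1.63 and 2.08 CPM in WT libraries. Ccl27a, a ligand of Ccr10 known from skin, was higher in every RIPK3-KO and Vil library than in every WT library. It rose 1.78-fold in RIPK3-KO against WT (log2 fold change 0.83, adjusted p = 0.00498). In Vil against WT it was not called (adjusted p = 0.0598), but with upper-quartile scaling (0.0447) or without Vil replicate 1 (0.0423) or WT replicate 3 (0.0452) it was, and its near-identical copy Ccl27b makes its counts uncertain. Xcl1, a T cell and natural killer cell ligand, and Xcr1, its receptor on cross-presenting dendritic cells, were not called in any comparison, with adjusted p between 0.120 and 0.671, and neither was Ccr4, with adjusted p between 0.135 and 0.521. Over the 7 tested genes of this group 1 rose and 1 fell in RIPK3-KO against WT, 0 rose and 1 fell in Vil against WT, and 1 rose and 0 fell in RIPK3-KO against Vil by edgeR's test. Of all genes tested 55.4%, 55.6% and 31.7% were called in the same order of comparisons.

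Of the 5 atypical receptors 3 rose and 1 fell in RIPK3-KO against WT, 1 rose and 1 fell in Vil against WT, and 3 rose and 0 fell in RIPK3-KO against Vil by edgeR's test. Of all genes tested 55.4%, 55.6% and 31.7% were called in the same order of comparisons. Ackr1 counted 1.99, 2.67 and 2.34 CPM in RIPK3-KO, 0.846, 1.34 and 1.36 CPM in Vil and 0.691, 0.683 and 1.01 CPM in WT libraries. Ackr4 counted 5.84, 6.92 and 6.09 CPM in RIPK3-KO, 1.52, 3.59 and 3.84 CPM in Vil and 3.22, 1.92 and 2.74 CPM in WT libraries. Ackr3 counted 7.24, 6.50 and 7.23 CPM in RIPK3-KO, 5.50, 5.42 and 4.23 CPM in Vil and 4.27, 3.68 and 3.26 CPM in WT libraries. For Ackr1, Ackr4 and Ackr3 every RIPK3-KO library was above every other library, and Vil and WT overlapped. Ackr1, which carries chemokines across venular endothelium, rose 2.94-fold in RIPK3-KO against WT (log2 fold change 1.56, adjusted p = 0.000242), and 361 of its 1405 exonic bases are shared with Cadm3 on the same strand. Ackr4, which removes Ccl19, Ccl21 and Ccl25, rose 2.39-fold against WT (log2 fold change 1.26, adjusted p = 0.000208) and 2.09-fold against Vil (log2 fold change 1.06, adjusted p = 0.00223), and 479 of its 5380 exonic bases overlap Acad11 on the other strand. Ackr3, which removes Cxcl12, rose 1.87-fold against WT (log2 fold change 0.90, adjusted p = 5.59e-05). Endothelial and lymphatic, fibroblast, adipocyte and erythroid markers also summed highest in RIPK3-KO, as given above, and their part in these rises was not tested.

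Several further calls among these receptors depended on settings. Ackr1 rose 1.96-fold in RIPK3-KO against Vil (adjusted p = 0.0207), and this was lost without RIPK3-KO replicate 2 (0.0897), RIPK3-KO replicate 3 (0.0578) or Vil replicate 1 (0.0863). Ackr3 rose 1.39-fold in the same comparison (adjusted p = 0.0305), which was lost with DESeq2 (0.0526) and without RIPK3-KO replicate 1 (0.0795), RIPK3-KO replicate 3 (0.0954) or Vil replicate 3 (0.138). Its rise of 1.35-fold in Vil against WT (adjusted p = 0.0372) was lost with DESeq2 (0.0593), limma-voom (0.0686), only the 2 groups in the fit (0.0554) and no count filter (0.0757). It was also lost without RIPK3-KO replicate 3 (0.050), Vil replicate 1 (0.116), Vil replicate 2 (0.111), WT replicate 2 (0.0911) or WT replicate 3 (0.150).

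Ccrl2 counted 5.49, 4.12 and 3.59 CPM in RIPK3-KO, 2.28, 3.70 and 4.23 CPM in Vil and 10.2, 12.7 and 12.1 CPM in WT libraries. WT libraries were above all others, and RIPK3-KO and Vil overlapped. Ccrl2, which binds the attractant chemerin and presents it to other cells, fell 2.66-fold in RIPK3-KO (log2 fold change -1.41, SE 0.18, adjusted p = 6e-07) and 3.40-fold in Vil (log2 fold change -1.77, SE 0.19, adjusted p = 4.44e-08) against WT. Ackr2, which scavenges inflammatory CC ligands, counted 0.511, 0.977 and 1.04 CPM in RIPK3-KO, 0.846, 1.07 and 0.108 CPM in Vil and 1.32, 1.66 and 1.53 CPM in WT libraries, with WT above all others. It was not called in RIPK3-KO against WT (log2 fold change -0.83, adjusted p = 0.146), but with only the 2 groups in the fit it was (0.049). In Vil against WT it was not called (log2 fold change -1.17, adjusted p = 0.0525), but it passed with limma-voom (0.0182), without a count filter (0.0178), with a filter at 1 CPM (0.0451), with counts halved (0.0296), with the replicate block (0.0456) and without RIPK3-KO replicate 1 (0.0431) or Vil replicate 2 (0.0196).

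The 9 genes that were not tested comprise 4 with 0 counts in each of the 9 libraries, Ccl21b, Ccl26, Ccl27b and Cxcl17, and 5 with few counts. By counting error alone a count of 0 allows up to 3 counts, or 0.0731 to 0.118 CPM of an unscaled library. For Ccl21b and Ccl27b, near-identical copies of Ccl21a and Ccl27a, this bound may not hold, since their reads may not have been told apart. Cxcr1, which like Cxcr2 binds neutrophil attractants, had 2, 3 and 1 counts in RIPK3-KO, 0, 1 and 0 counts in Vil and 5, 2 and 0 counts in WT libraries. Ccr8 had 2, 4 and 3 counts in RIPK3-KO, 8, 0 and 0 in Vil and 2, 2 and 8 in WT. Cxcl15, known from lung, had 4, 2 and 4 counts in RIPK3-KO, 0, 0 and 15 in Vil and 2, 8 and 3 in WT. Cxcr5 and Ccr6 are given above with their ligands. For each of the 5 the libraries of the groups overlapped. Summed Cxcr5 counts stood at a scaled ratio of 3.25 for Vil over WT (95% interval 1.545 to 7.45, or 1.12 to 11.4 with counts halved), with Vil replicate 3 within the range of the WT libraries.

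Genes that act on chemokines or downstream of their receptors were read from a list of 41 genes, of which 40 were tested: 8 rose and 12 fell in RIPK3-KO against WT (55.4% of all genes called), 9 rose and 20 fell in Vil against WT (55.6%), and 12 rose and 7 fell in RIPK3-KO against Vil (31.7%). In the same order of comparisons the median log2 fold change of the list was -0.050, -0.19 and 0.14, beside 0.014, 0.016 and 0.011 over all genes tested. The genes named from the list were chosen for the smallest p in edgeR's test among those called, at most 3 risen and 3 fallen per comparison. They show the clearest calls of the list and not its typical gene. Dpp4, the peptidase that trims and inactivates several chemokines and an enzyme of the enterocyte brush border, averaged 412 ± 8.58 CPM in RIPK3-KO, 535 ± 33.8 CPM in Vil and 150.4 ± 4.03 CPM in WT (SD, n = 3 libraries each). Dpp4 rose 2.74-fold in RIPK3-KO (adjusted p = 1.56e-18) and 3.56-fold in Vil (adjusted p = 1.92e-20) against WT, and fell 1.299-fold in RIPK3-KO against Vil (adjusted p = 7.2e-07). Elmo1, a partner of the Rac activator Dock2, fell 2.03-fold in RIPK3-KO (adjusted p = 3.25e-13) and 1.79-fold in Vil (adjusted p = 2.55e-11) against WT, and Rac1, a GTPase of cell movement, fell 1.45-fold in RIPK3-KO and 1.40-fold in Vil against WT.

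Rgs13, a regulator of G protein signalling, a family that shortens receptor signals, averaged 3.995 CPM in RIPK3-KO, 3.38 CPM in Vil and 0.573 CPM in WT. It rose 6.95-fold in RIPK3-KO (adjusted p = 9.52e-10) and 5.89-fold in Vil (adjusted p = 7.71e-09) against WT. Rgs16, of the same family, averaged 2.54 CPM in RIPK3-KO, 0.701 CPM in Vil and 2.12 CPM in WT, and Rgs2 averaged 31.1 CPM in RIPK3-KO, 23.5 CPM in Vil and 24.9 CPM in WT. Rgs16 fell 3.03-fold in Vil against WT (adjusted p = 0.000165) and rose 3.63-fold in RIPK3-KO against Vil (adjusted p = 5.19e-05), and Rgs2 rose 1.253-fold in RIPK3-KO against WT (adjusted p = 0.00107) and 1.33-fold against Vil (adjusted p = 0.000268).

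Grk5, a kinase that desensitises receptors, averaged 14.5 CPM in RIPK3-KO, 7.67 CPM in Vil and 13.4 CPM in WT. It fell 1.74-fold in Vil against WT (adjusted p = 2.67e-06) and rose 1.89-fold in RIPK3-KO against Vil (adjusted p = 6.65e-07). Grk6, a related kinase, fell 1.47-fold in RIPK3-KO (adjusted p = 5.09e-08) and 1.73-fold in Vil (adjusted p = 1.94e-10) against WT. Pik3cg, the phosphoinositide kinase subunit activated by G protein-coupled receptors, averaged 5.15 CPM in RIPK3-KO, 9.39 CPM in Vil and 4.88 CPM in WT. It rose 1.92-fold in Vil against WT (adjusted p = 3.18e-05), was not called in RIPK3-KO against WT (adjusted p = 0.724) and fell 1.82-fold in RIPK3-KO against Vil (adjusted p = 0.000165).

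Lyn, a Src-family kinase, averaged 62.8 CPM in RIPK3-KO, 85.9 CPM in Vil and 73.7 CPM in WT. It fell 1.17-fold in RIPK3-KO against WT (adjusted p = 0.000996), rose 1.17-fold in Vil against WT (adjusted p = 0.00152) and fell 1.37-fold in RIPK3-KO against Vil (adjusted p = 4.13e-07). Arrb1, a beta-arrestin that internalises receptors, rose 1.44-fold in RIPK3-KO (adjusted p = 5.97e-09) and 1.62-fold in Vil (adjusted p = 5.34e-11) against WT. Rap1b, a GTPase of integrin activation, fell 1.38-fold in RIPK3-KO (adjusted p = 1.48e-08) and 1.28-fold in Vil (adjusted p = 9.96e-07) against WT.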

How the data were processed

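RNA of 9 small intestine libraries, 3 per group, was sequenced by the submitters after ribosomal RNA removal with stranded kits, per the labels' protocols. Whole-number counts per gene, RPKM and TPM were deposited by the authors in 1 table, with reads aligned to mm10 and the tools Trimmomatic, STAR, HTSeq and DESeq2 listed in the submitters' processing notes without versions. The deposited RPKM are divided by gene length and library size, and the deposited TPM by gene length with each library scaled to the same sum, per the file headers. The sources used here do not state strand use in counting.

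The test of the counts was edgeR's (version 4.0.16, R 4.3.3; filterByExpr, TMM scaling with factors of 0.932 to 1.043, glmQLFit robust and glmQLFTest, 1 mean per group over all 9 libraries, 6 residual degrees of freedom, common biological coefficient of variation 0.0812). P-values were adjusted by Benjamini-Hochberg over 16539 genes at a threshold of 0.05, with a prior count of 0.125 behind fold changes. CPM are counts over the TMM-scaled library size. The fit was also run on counts simulated from its own model, with a small share of genes changed in 1 group. Such counts lack the wide differences between these groups and cannot show that the fit holds for them. Exact binomial intervals (95%) describe ratios of few counts, and intervals and floors (3 counts) cover counting error only. The precision behind a gene's value follows from its counts in libraries of 25375499 to 41038990.

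All members with a mean of at least 0.5 CPM in some group and a call in at least 1 comparison are given by library, except 1 gene that enters the counts but is not reported here. The 57 genes and all lists were chosen with earlier results of these data known. Gene positions and exon overlaps are from GENCODE M21, in which all 57 identifiers were found, and promoter windows from RefSeq (GRCm38.p6). Alternatives were RLE and upper-quartile scaling, TMM without pancreas, adipocyte and erythroid genes, 2 other count filters, fits of only 2 groups, a replicate block, DESeq2 1.42.0, limma-voom 3.58.1, each library left out, and counts halved, the last chosen after seeing the data.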

Additional observations from a re-analysis of the deposited data

Results flagged for a closer look

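Against the same WT libraries, 3 chemokine genes were called in opposite directions in RIPK3-KO and in Vil. The difference between RIPK3-KO and Vil comes from edgeR's quasi-likelihood test with Benjamini-Hochberg adjustment over all genes tested. A call in that comparison was part of the rule that flagged these genes. It also uses the same libraries, so its adjusted p-values are not separate support for the opposite directions. Cx3cl1, which fell in RIPK3-KO and rose in Vil against WT, differed by -0.52 on the log2 scale in RIPK3-KO over Vil (adjusted p = 5.3e-09). Ccl9, which rose in RIPK3-KO and fell in Vil against WT, differed by 0.48 (adjusted p = 9.77e-05). Ccl6, with the same directions as Ccl9, differed by 0.34 (adjusted p = 2.28e-05). Each of the 3 genes had RIPK3-KO and Vil libraries on opposite sides of all WT libraries. The Vil call of Cx3cl1 against WT did not hold in the sign of the deposited TPM, and several calls of Ccl6 and Ccl9 against WT were lost without 1 library, as given in the report.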

How the results depend on the processing

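The number of chemokine genes called kept within 1.5 times its value under all 19 alternatives. It was 32 in RIPK3-KO against WT (26 to 32 with a library left out, 29 to 35 under the other 10 alternatives), 29 in Vil against WT (25 to 30 and 26 to 30) and 20 in RIPK3-KO against Vil (14 to 19 and 17 to 20). No direction of a called gene turned. Over 144 results, 48 genes in 3 comparisons, RLE scaling and TMM without pancreas, adipocyte and erythroid genes changed 0 calls, DESeq2 lost 6, upper-quartile scaling lost 6 and gained 2, and single left-out libraries lost 5 to 13 each, the most without RIPK3-KO replicate 3. Counts halved gained 2 calls and lost 0 among the genes still tested. Over all genes 9164 were called in RIPK3-KO against WT, 9201 in Vil against WT and 5244 in RIPK3-KO against Vil, with 8240 to 9477, 8315 to 9431 and 4069 to 5226 without 1 library. Upper-quartile scaling moved the median over all genes in RIPK3-KO against WT to 0.073 on the log2 scale. Replicate numbers did not pair the libraries (correlation of deviations -0.054 to 0.14; 2 of 9 libraries correlated best with their own number). With the number as a replicate block, Ackr2 was called in Vil against WT (-1.24) and Cxcl16 was no longer called in RIPK3-KO against Vil (-0.15), and no other call of the 144 changed. Depth limits the 9 untested genes, and sex limits both comparisons with RIPK3-KO.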
